A study of Mus musculus with 4 samples.

Results

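Follistatin is the product of Fst, and the data around this gene are 3 peaks of the transcription factor p63 and 58 peaks of acetylated histone H3 in the 500 kb window of mouse chromosome 13 that holds it. The peaks were chosen by position alone, as all those with their midpoint in chr13:115000001-115500000 on the mm9 build. They are 3 of the 4130 p63 peaks and 58 of the 183757 H3K27ac peaks in the whole series, and 61 of 187887 peaks in all. The gene lies at about 115.242 to 115.249 Mb. This span is rounded, so distances to the gene are approximate, to within about 1 kb. The files and tables used here give no strand for the gene. From general knowledge, Fst is transcribed towards lower positions, and on that basis the upper end of the span is called its start and the lower end its far end throughout.

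Chromatin immunoprecipitation followed by sequencing (ChIP-seq) was run on primary salivary epithelial progenitors of adult mice, 12 weeks old and wild type for p63. The 4 libraries were a p63 ChIP with the monoclonal antibody 4A4, an H3K27ac ChIP, and 1 input library for each of them, made with no antibody. The data are 2 lists of peaks, each of 1 ChIP library called against 1 input. The labels give no number of animals or cultures, and nothing in the lists checks the identity of the cells, since they hold no expression values. The lists hold positions without heights or read numbers, so the depth behind a peak is unknown, no peak can be checked in a replicate, and no test between conditions was possible. What follows sets the Fst window beside the other 5285 windows of 500 kb as a description.

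Follistatin is a secreted glycoprotein that binds activins and keeps them from their receptors. Activins belong to the TGF-beta family and signal through receptor kinases to SMAD proteins, and activin and TGF-beta signals restrain the growth of many epithelial cells. p63 belongs to the p53 family and marks the basal cells of stratified and glandular epithelia, where it is needed for the upkeep of progenitors. The antibody 4A4 binds p63 of both the TA and the ΔN kind. H3K27ac is a histone mark found at active promoters and enhancers. The title of the series names follistatin as a gene through which p63 acts in salivary progenitor cells, and the comparison here asks where p63 and acetylated chromatin lie around that gene.

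The upper end of Fst, taken as its start, lay in a compact block of acetylated chromatin, and the nearest p63 peak lay past the lower end of the gene, about 4.3 kb beyond it. Of the other p63 peaks of the window, one lay about 141 kb below the gene and one about 185 kb above it. No p63 peak overlapped the gene span or the acetylated block at its start. The 3 p63 peaks differed in their acetylation: the one at Fst overlapped an H3K27ac peak, the upper one stood between H3K27ac peaks on both sides, and the lower one had no H3K27ac peak within 1 kb.

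**Figure D1:**
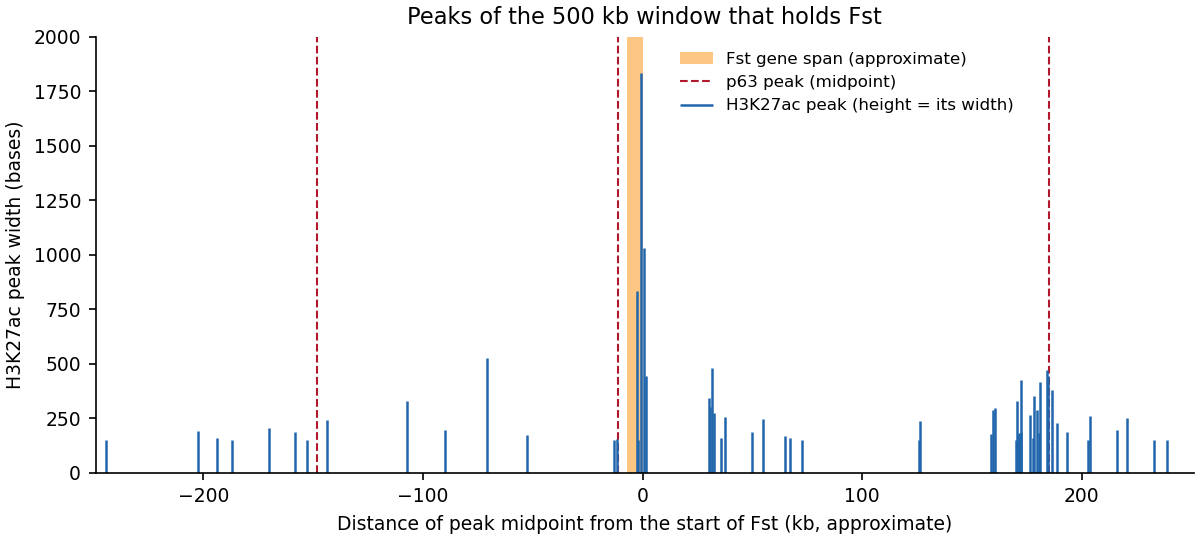
Peaks of the 500 kb window around Fst. The x axis gives the distance of each peak's midpoint from the approximate start of Fst in kb, each blue line is 1 of the 58 H3K27ac peaks with its width in bases as height, the dashed red lines are the 3 p63 peaks and the orange band is the gene. The 2 H3K27ac peaks wider than 1000 bases stand at the gene, and another crowd of narrower peaks stands around the p63 peak about 185 kb above it.

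The acetylated block at Fst consisted of 5 H3K27ac peaks. Joined where at most 1000 bases lay between them, they formed a domain at chr13:115245974-115250915 that spanned 4942 bases. It reached from about 3 kb inside the gene to about 1.9 kb beyond its start. The widest of the 5 peaks, chr13:115247236-115249067, had 1832 bases, and the approximate start of Fst fell within it. Only 686 of the 183757 H3K27ac peaks (0.373%) were as wide or wider, itself included. The next peak outward, chr13:115249270-115250301, had 1032 bases and began about 0.27 kb past the approximate start. Because the span is rounded, the true start cannot be placed in the widest peak rather than in this one. The block ended with a peak of 446 bases at chr13:115250470-115250915. Inside the gene lay a peak of 835 bases at chr13:115245974-115246808 and one of 150 bases, the smallest width in the list, at chr13:115247006-115247155.

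Few domains in the genome were as long, and fewer held as many acetylated bases. Of the other 139149 domains, lone peaks counted as domains of their own, 806 (0.579%) were at least as long as the one at Fst. Lone peaks make up most of this background and lower the share. Only 24666 of all 139150 domains joined more than 1 peak, with a median span of 1217 bases. On chromosome 13, 34 others of its 6563 domains were at least as long. The gaps between the 5 peaks at Fst had 80 to 202 bases, so 4295 bases, or 86.9% of the span, were inside H3K27ac peaks. As many acetylated bases were found in 436 other domains (0.313%). Among the 806 domains at least as long, 7.07% were covered to the same degree or more. Of all 5286 windows, 514 (9.72%) held a domain at least as long, the Fst window included. The share of domains as long depended on the joining distance: at 3000 bases the block at Fst kept its span and 4.26% of other domains were at least as long.

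**Figure D2:**
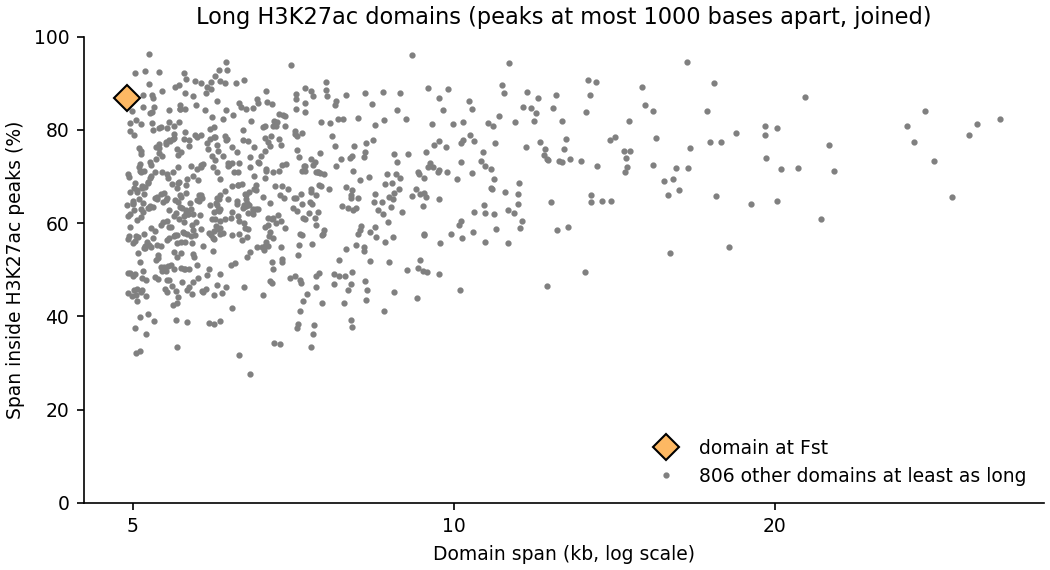
Long H3K27ac domains, made by joining peaks at most 1000 bases apart. The x axis gives the span of a domain in kb on a log scale and the y axis the percentage of it inside H3K27ac peaks; grey points are the 806 other domains at least as long as that at Fst. The domain at Fst, the orange diamond, is at the short end by construction and, at 86.9% covered, above most of the others.

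Fst shares this stretch with other transcripts. In the RefSeq gene table of the GRCm38 build, used here for names and gene order only, the lncRNA Gm41074 overlaps Fst. A ChIP-seq peak has no strand, so acetylation at the start of Fst and at this lncRNA cannot be told apart. The neighbouring protein-coding genes in that table are Ndufs4, a subunit of mitochondrial complex I, on the lower side, and Mocs2, which acts in the making of the molybdenum cofactor, on the upper side. Between Fst and Mocs2 the table lists lncRNAs only. Itga2 and Itga1, which encode alpha subunits of collagen-binding integrins, come after Mocs2. No peak was assigned to a gene from this order.

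The p63 peak at Fst lay at chr13:115237526-115237718 and had 193 bases. In the p63 list, 42.5% of peaks were as wide or wider. It shared 110 bases with an H3K27ac peak of 157 bases at chr13:115237479-115237635, which is 57.0% of the p63 peak and 70.1% of the H3K27ac peak. Sharing at least 1 base with H3K27ac was common among p63 peaks, at 34.8% of all 4130, and among the 1438 such peaks outside the window the median share of the p63 peak that was covered was 57.7%. In its extent, the overlap at Fst was therefore an ordinary one.

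The H3K27ac peak under it was narrow among those that p63 peaks met. In the whole H3K27ac list, 73.6% of peaks were as wide or wider. Outside the window, the widest H3K27ac peak met by an overlapping p63 peak had a median of 471 bases (quartiles 255 and 887), and in 87 of 1438 cases (6.05%) it had 157 bases or fewer. A further small H3K27ac peak of 150 bases, chr13:115235738-115235887, lay 1638 bases below the p63 peak. On the side of the gene, the next H3K27ac peak was the lower edge of the block at Fst, 8255 bases away. Of the 7 H3K27ac peaks that overlapped the gene span or lay within 10 kb of it, 5 thus made up the block and 2 stood at the p63 peak, and 3 of the 5 overlapped the gene span itself.

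**Figure D3:**
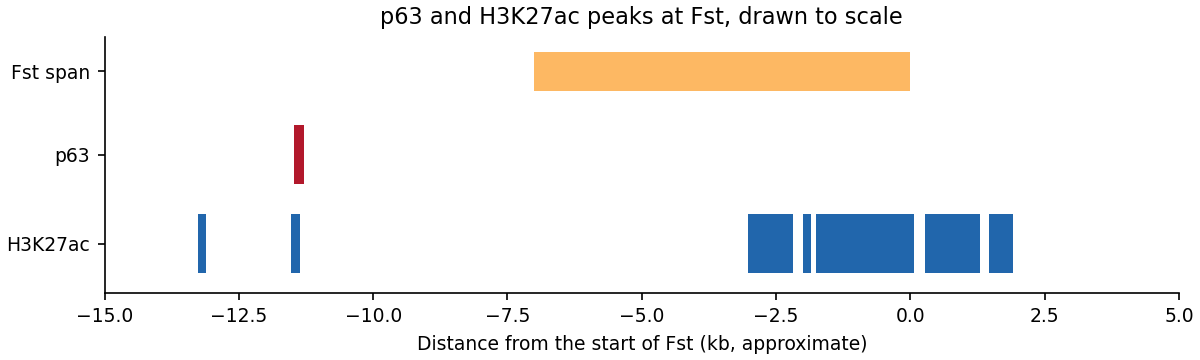
p63 and H3K27ac peaks at Fst, drawn to scale. The x axis gives the distance from the approximate start of the gene in kb, the orange bar is the gene span, and red and blue boxes are p63 and H3K27ac peaks. The p63 peak sits on a 157-base H3K27ac peak beyond the end of the gene, 8255 bases from the 5-peak block at the start.

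A p63 peak outside a long acetylated block but near it was not the usual arrangement. Of the 806 other domains at least as long as that at Fst, 239 (29.7%, exact 95% binomial interval 26.5 to 32.9%) had a p63 peak inside. A further 61 (7.57%, interval 5.84 to 9.62%) had none inside but one within the 8255 bases seen at Fst, and 506 (62.8%) had no p63 peak within that distance. Counted together, 37.2% had p63 inside or as near as at Fst. These intervals cover counting error only and treat domains as independent. The distance at Fst set the limit, so these shares describe where Fst falls and do not test it.

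The lower p63 peak, chr13:115100824-115101138, was the widest of the 3. It had 315 bases, and 133 peaks of the p63 list (3.22%) were as wide or wider, itself included. The nearest H3K27ac peaks were narrow, with 150 bases at 4557 bases below and 242 bases at 4231 bases above. Lying more than 1 kb from H3K27ac was the case for 31.6% of all p63 peaks, and 16.9% lay at least as far as this one. Within 10 kb of its midpoint there were 2 H3K27ac peaks with 392 bases in total. For the 4127 p63 peaks outside the window the medians were 4 H3K27ac peaks (quartiles 2 and 7) and 1027 bases (quartiles 410 and 2371) within 10 kb. The widest p63 peak of the window was thus the one with the least acetylation around it.

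The upper p63 peak, chr13:115434166-115434285, had 120 bases, the smallest width in the p63 list, which it shared with 366 other peaks. It met no H3K27ac peak but lay in a gap of 1026 bases between a pair of them. The one below, chr13:115433589-115434034, had 446 bases and ended 131 bases short of the p63 peak. The one above, chr13:115435061-115435440, had 380 bases and began 775 bases past it. Such a place, with H3K27ac within 1 kb on both sides and no shared base, was that of 11.4% of all p63 peaks. Within 10 kb of its midpoint there were 11 H3K27ac peaks with 3381 bases, both above the upper quartiles of p63 peaks outside the window. At the p63 peak next to Fst the same counts were 4 H3K27ac peaks and 1292 bases, both within the quartiles. These counts leave out the 1832-base peak over the approximate start of Fst, which began within 10 kb but had its midpoint just beyond.

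**Figure D4:**
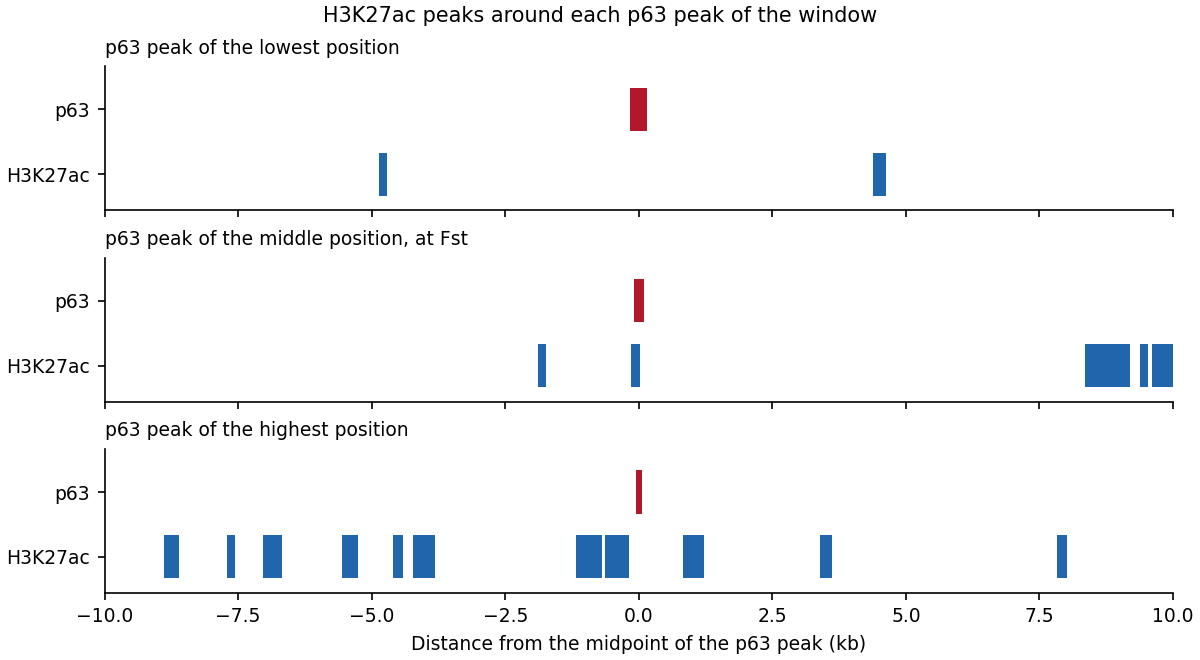
H3K27ac peaks (blue boxes) within 10 kb of each of the 3 p63 peaks (red boxes) of the window, to scale. The x axis gives the distance from the midpoint of the p63 peak in kb; from top to bottom the rows hold 2, 4 and 11 H3K27ac peaks with their midpoint in view.

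Over the whole window, 1 of the 3 p63 peaks overlapped H3K27ac (exact 95% binomial interval 0.84 to 90.6%), against 34.8% of the 4127 p63 peaks outside it. Within 1 kb of H3K27ac were 2 of the 3 (interval 9.43 to 99.2%), against 68.4% outside. With 3 peaks these intervals leave almost any share possible, and the shares at Fst were near the background. The midpoints of neighbouring p63 peaks lay 137 and 197 kb apart, against a median of 234 kb over all 4110 neighbouring pairs in the list, so the p63 peaks of the window did not form a close group.

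Acetylation in the window was concentrated in a pair of places. The 58 H3K27ac peaks held 17137 bases, of which 25.1% belonged to the block at Fst. By 100 kb steps from the lower edge, the window held 7, 5, 14, 6 and 26 H3K27ac peaks with 1192, 1470, 6607, 1114 and 6754 bases. The step with Fst and the uppermost step held 38.6% and 39.4% of the acetylated bases, although the uppermost one had more and narrower peaks. The p63 peaks lay in the steps with 5, 14 and 26 H3K27ac peaks.

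The uppermost part was a long and loosely filled stretch. Joined at the wider distance of 12.5 kb that is often used to stitch enhancers, 26 H3K27ac peaks at chr13:115407803-115488121 formed a stretch of 80.3 kb, and 648 of the 53052 stretches in the genome (1.22%) were as long or longer, itself included. H3K27ac peaks covered 6754 bases of it, and the upper p63 peak was inside. Its longest domain at the 1000-base distance had 6 peaks over 2798 bases, at chr13:115418969-115421766, of which 51.8% were covered. A smaller domain of 4 peaks lay between the gene and this stretch, at chr13:115279289-115281553, about 31 kb beyond the start of Fst, and it held no p63 peak. The same joining at 12.5 kb put the p63 peak at Fst and the block at the gene's start into 1 stretch of 15.2 kb.

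Most domains of the window were lone peaks, as they were in the genome. Joined at 1000 bases, its H3K27ac peaks made 38 domains, of which 30 were lone peaks and 8 joined more than 1. In the genome, 24666 of 139150 domains joined more than 1 peak. Outside the block at Fst, the widest H3K27ac peaks of the window were one of 525 bases at chr13:115177872-115178396, about 64 kb below the gene, and one of 481 bases at chr13:115280178-115280658. The longest stretch without any H3K27ac peak ran for 53.2 kb at chr13:115321473-115374655, and 4.86% of the gaps between neighbouring H3K27ac peaks in the genome were as long. A gap of 39.3 kb ended at the small H3K27ac peak below the p63 peak at Fst. None of the 5 longest gaps held a p63 peak. The median width of H3K27ac peaks was 202 bases in the window and 191 outside it, and 2 of the 58 (3.45%) were wider than 1000 bases, against a background of 1.90%.

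In its totals, the Fst window was above the middle of the genome without standing at its top. It held 3 p63 peaks (exact 95% Poisson interval 0.619 to 8.77), against a median of 0 and a mean of 0.781 in the other windows, and 532 of all 5286 windows (10.1%), itself included, held at least as many. The highest number in 1 window was 11. Its 58 H3K27ac peaks (interval 44.0 to 74.98) compared with a median of 27 (quartiles 11 and 50), and 19.7% of windows held at least as many. Its 17137 acetylated bases compared with a median of 5833, and 15.5% of windows had at least as many. That share depended on the windows drawn: it was 29.1% with windows offset by 250 kb, 5.12% with windows of 100 kb and 23.6% with windows of 1 Mb. In the same way the share for H3K27ac peaks was 36.2% with the offset, and that for p63 peaks 24.8% with windows of 1 Mb. Both at least 3 p63 peaks and at least 17137 acetylated bases were found in 327 windows (6.19%), that of Fst included.

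**Figure D5:**
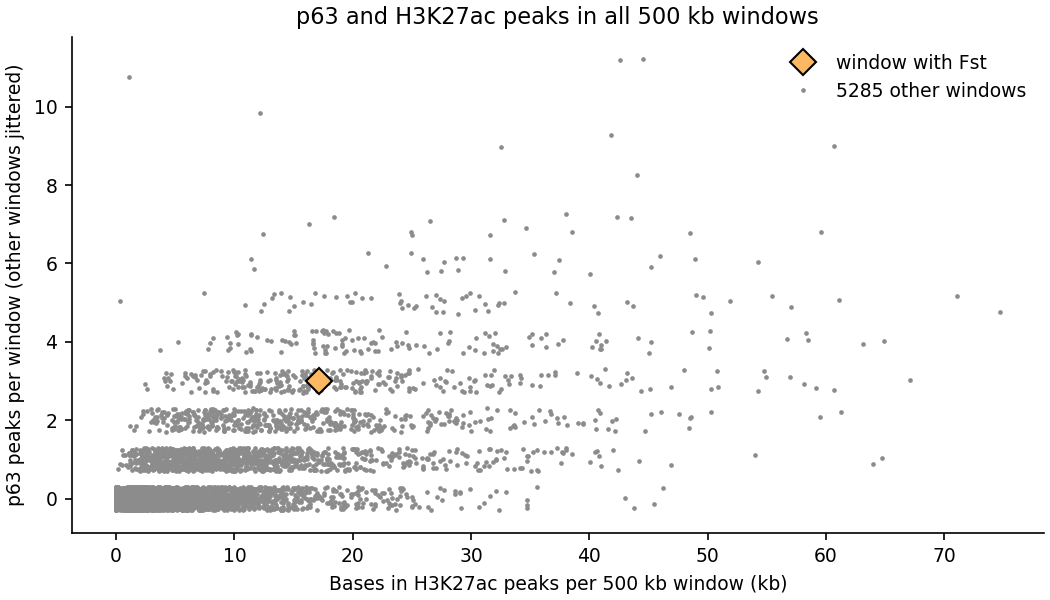
p63 peaks against bases in H3K27ac peaks, in kb, for all windows of 500 kb. The orange diamond is the Fst window, with 3 p63 peaks and 17137 acetylated bases, and grey points are the 5285 other windows, spread a little up and down at random so that they do not hide each other. Many other windows exceed it on either axis.

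The number of p63 peaks at Fst was also set beside windows of like acetylation. In the 362 other windows with 53 to 63 H3K27ac peaks, within 10% of the number at Fst, the median was 1 p63 peak (quartiles 0 and 2) and the mean 1.31, above the 0.781 of all other windows. Of the 362, 114 held none and 61 (16.9%) held 3 or more. Their acetylated bases had a median of 14580, and 44 of them (12.2%) had at least as many as the Fst window.

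The 3 windows closest to it in all these ranks had 3 p63 peaks each, which follows from the choice, since the p63 count was among the ranks. All of these p63 peaks lay within 1 kb of H3K27ac. At Fst it was 2 of 3, a share near the 68.4% of p63 peaks outside the window. At chr3:32000001-32500000 there were 59 H3K27ac peaks with 16553 bases, and 1 of the p63 peaks overlapped them. The window chr2:112000001-112500000 had 60 with 18071 bases and 1 overlap, and chr9:50000001-50500000 had 59 with 18559 bases and 2 overlaps. Their longest domains spanned 3642, 2157 and 4225 bases, each shorter than the 4942 bases at Fst.

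No p63 peak lay close to an edge of the window. The p63 peaks nearest outside it lay 100 kb below the lower edge and 714 kb above the upper edge, and those nearest inside lay 101 and 65.8 kb from the edges. For H3K27ac the nearest peaks outside were 21.4 and 9.36 kb from the edges, and those inside 4.89 and 12.0 kb. The adjoining windows held 4 p63 peaks with 43 H3K27ac peaks on the lower side and 0 with 41 on the upper side.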

How the data were processed

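The submitters' processing notes name the aligner Bowtie 1.1.1, the peak caller MACS2 2.1.0 and the build mm9. The settings and threshold, which decide how many peaks are called and how wide, are not stated in the sources used here. What the authors deposited are 2 lists of peak positions, with no score. Starts are printed counted from 1. On the mm9 span of Fst, 3 H3K27ac peaks with 2817 bases overlapped the gene, and 0 overlapped its GRCm38 interval. This is a weak check of the build, since it takes acetylation at Fst for granted. Without an mm9 genome or annotation, the TGF-beta and activin gene list and the promoter motifs were not examined.

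Windows of 500 kb ran from position 1 of each chromosome to its last peak. A peak belongs to the window of its midpoint, and overlap means at least 1 shared base. Intervals are exact 95% intervals for counting error only. Counting, gaps and joining were checked on simulated peaks. No significance test was run. The window, lists and measures were chosen with earlier results of these data known. The peaks named are all p63 peaks of the window, their nearest H3K27ac peaks, those within 10 kb of the gene and the 5 widest, and the windows named are the 3 closest in rank; the domains and stretches were added after their values were seen. Software was Python 3.11.15 with scipy 1.17.1, pandas 2.3.3, numpy 2.4.6 and matplotlib 3.10.9.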

Additional observations from a re-analysis of the deposited data

How the results depend on the processing

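Counts, bases and spans were held to 1.5 times their value and shares to their exact 95% interval, and 33 of 58 alternatives stayed within these limits. Some of the 33 could not have moved, since comparing with fewer windows leaves the counts in the Fst window as they are. For the overlap of the 3 p63 peaks, only 0 of 3 or 3 of 3 could fall outside the interval. The tally is therefore no measure of how stable the results are. In 100 kb windows, the one with Fst held 1 p63 peak (12.3% of windows held at least as many) and 14 H3K27ac peaks (15.0%). In 1 Mb windows it held 3 p63 peaks (24.8%) and 99 H3K27ac peaks (26.4%). In windows offset by 250 kb, the one with Fst also held 3 p63 peaks, but not the same set. The upper p63 peak fell outside it, and the peak at chr13:114899835-114900006 came in. The H3K27ac share with this offset was 36.2%, where 19.7% stood before. On chromosome 13 alone the shares were 12.0% for p63 and 16.6% for H3K27ac, and on autosomes 20.8% for H3K27ac. With the wider p63 peaks, those above the median width, 2 were left in the window, and 8.44% of windows held at least as many. With the wider H3K27ac peaks 31 were left in the window, and p63 overlap at Fst went to 0.00% (0 of 3), since the H3K27ac peak of 157 bases under the p63 peak was dropped; the first 91878 rows kept that peak and gave an H3K27ac window share of 9.12%. Within 5 kb, 100% (3 of 3) of the p63 peaks had H3K27ac, against 85.1% outside. The share of windows with at least as many acetylated bases, 15.5% before, was 29.1% with the offset, 5.12% in 100 kb windows and 23.6% in 1 Mb windows. The block at Fst kept its 4942 bases with joining at 500 and 3000 bases, where 0.247% and 4.26% of other domains were as long, against 0.579% before. Joining at 12.5 kb gave a span of 15178 bases at Fst, and 20.4% of other stretches were as long. The H3K27ac overlap of the p63 peak at Fst therefore rests on 1 narrow peak. The list holds no peak scores, so no stricter threshold could be set. No paired analysis was possible because there is 1 library of each kind. With the depth unknown, a site without a called peak is not shown to lack p63 or acetylation.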

Other observations

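The H3K27ac list has a row order other than that of the genome, and the file does not say what it is. In this order the H3K27ac peaks of the Fst window stood early: 45 of 58 (77.6%) were among the first 91878 rows, of 183757, and 10 (17.2%) among the first 18375. The peak over the approximate start of Fst was in row 782 and its outer neighbour of 1032 bases in row 2002. The 157-base peak under the p63 peak at Fst was in row 43803. The H3K27ac peaks that flank the upper p63 peak were in rows 10987 and 33858.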
